A study of Rattus norvegicus with 15 samples.

Results

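The histone genes of the rat femur were described in polyadenylated RNA, over 15 libraries of 5 groups with 3 libraries each. Members were the rows whose gene name begins with Hist1h, Hist2h, Hist3h, Hist4h, H1f, H2ac, H2bc, H3c or H4c, and 39 of the 30454 genes in the files met this rule. They carry 31 different names. By family, 9 rows are linker histones of the H1 family, 9 are H2A, 8 are H2B, 5 are H3 and 8 are H4 genes, so that 30 rows are core histones.

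All rats were female SD rats, 8 weeks old at the start, and the femur was taken after a 6-week recovery from surgery and 8 weeks of treatment. Group PJ was ovariectomised and given a combined extract of Juglans regia L. (walnut) and Psoralea corylifolia Linn. at 4.0 g per kg per day. Group P was ovariectomised and given the Psoralea corylifolia Linn. extract at 2.4 g per kg per day. Group J was ovariectomised and given the Juglans regia L. extract at 1.6 g per kg per day. The extracts were given by mouth. Group OVX lost both ovaries, the main source of estrogen, and received saline. Group Sham kept its ovaries, had a matching amount of fat removed and received saline. Ovariectomy is a common model of bone loss after menopause. J, P and PJ are set against the same 3 OVX libraries, so these comparisons are not independent of each other. The labels do not say that each library is a separate rat, so p-values measure the spread between libraries, which may be in part technical.

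Core histones H2A, H2B, H3 and H4 form the protein spool around which DNA winds, and linker histone H1 closes the wrap. In mammals most of these genes are replication dependent. They are transcribed while DNA is copied, and their mRNAs end in a stem-loop, bound by the protein Slbp, with no poly(A) tail. A library made from polyadenylated RNA therefore holds only part of their output, such as transcripts that read past the stem-loop and end in a poly(A) tail. The linker histones H1f0 and H1f10 are made outside of DNA replication from polyadenylated mRNAs, and H1f0 is known for gathering in cells that have stopped dividing. Bone marrow inside the femur holds many dividing blood cell precursors.

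Promoters of single-name members were read from RefSeq (build GRCr8, which differs from the build of the files, so no coordinates are given), from 250 bases before to 50 bases after the start of each gene. Of 27 names that stand for 1 row, 25 were matched. Windows of 150 bases before the start are shown 5′ to 3′ for 3 replication-dependent linker genes, for the replication-independent H1f0 and H1f10, and for 2 H2B genes. The linker genes split in the comparisons that follow. These H2B genes had the largest and the smallest log2 fold change of FPKM + 1 in OVX against Sham among the tested H2B rows. Capitals mark 4 motifs, each searched on both strands. The H1 box is AAACACA. The CCAAT box appears as ATTGG where it lies on the other strand. The TATA box is TATAAA here. The octamer is ATTTGCAT. None of these motifs overlap each other in the windows shown.
H1f4: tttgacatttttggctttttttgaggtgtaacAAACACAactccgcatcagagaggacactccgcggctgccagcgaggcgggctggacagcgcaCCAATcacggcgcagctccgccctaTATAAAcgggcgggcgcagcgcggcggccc
H1f5: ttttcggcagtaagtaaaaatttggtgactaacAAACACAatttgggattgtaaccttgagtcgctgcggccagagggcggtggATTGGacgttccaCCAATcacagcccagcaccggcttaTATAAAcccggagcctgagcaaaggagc
H1f2: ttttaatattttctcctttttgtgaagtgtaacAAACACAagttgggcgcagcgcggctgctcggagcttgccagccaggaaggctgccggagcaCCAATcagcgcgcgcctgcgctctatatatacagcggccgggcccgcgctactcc
H1f0: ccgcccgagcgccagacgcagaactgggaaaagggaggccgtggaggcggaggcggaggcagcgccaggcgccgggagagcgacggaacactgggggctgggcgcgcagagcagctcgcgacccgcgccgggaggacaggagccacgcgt
H1f10: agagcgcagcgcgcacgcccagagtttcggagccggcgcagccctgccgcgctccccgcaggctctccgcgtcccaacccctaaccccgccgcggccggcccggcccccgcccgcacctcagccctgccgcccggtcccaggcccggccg
Hist3h2ba: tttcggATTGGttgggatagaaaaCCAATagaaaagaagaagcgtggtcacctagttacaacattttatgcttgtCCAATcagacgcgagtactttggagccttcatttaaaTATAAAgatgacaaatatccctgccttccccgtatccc
H2bc18: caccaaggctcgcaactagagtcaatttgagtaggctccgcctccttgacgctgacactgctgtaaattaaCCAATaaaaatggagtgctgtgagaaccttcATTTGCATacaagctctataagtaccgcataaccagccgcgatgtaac
The H1 box lies 118 bases before the start in H1f4 and 117 bases before it in H1f5 and in H1f2. The nearest CCAAT lies 55, 53 and 55 bases before the start in H1f4, H1f5 and H1f2. The windows of H1f0 and H1f10 hold none of the 4 motifs and are 75.3% and 81.3% G or C, against 60.7% in H1f4 and 40.7% in Hist3h2ba. Hist3h2ba holds CCAAT 3 times and TATAAA 38 bases before the start, and H2bc18 holds the octamer 48 bases before it.

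Over the 25 matched promoters, 20 held CCAAT, against 37.5% of all 33469 promoters of the same length. TATAAA was found in 11, against 14.2% of all promoters. The H1 box was found in 8, of which 5 were among the 9 linker genes, against 6.99% of all promoters. The octamer was found in 6, of which 3 were H2A and 3 were H2B genes, against 1.78% of all promoters. A match describes these letters and does not show that a factor binds there.

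Levels are given as FPKM, fragments per kilobase of gene and 1000000 reads, as deposited. Of the 39 rows, 3 were listed at 0 in all 15 libraries. They were H1f7 and H2bc1, which are known from testis, and 1 of 2 rows named H2ac25. The other 36 were above 0 in some library, and 28 reached the mean of 1 FPKM required for testing. The 8 rows above 0 but below that mean were H1f6, H1f8, the other H2ac25 row, H2ac1, Hist1h2bq and 3 of the 6 rows named Hist1h4m. Histone genes of 1 family occur in many copies of like sequence, and 4 names stand for several rows (Hist1h4m, Hist1h2bo, Hist1h3b and H2ac25). The sequences of these rows were not compared. The sources used here do not give how reads that map to several copies were counted, so the split of reads among such rows is uncertain. They do not give whether strand was used in counting either, so reads of genes that overlap on the other strand cannot be told apart. The last 5 digits of the Ensembl gene ID are given where a name has several rows.

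Library totals, inferred from the FPKM values, ran between 34.4 and 61.03 times 1000000 reads. The mitochondrial share of FPKM ranged over 11.4% to 36.8%, highest in P 2. Tests used log2(FPKM + 1) in limma over 14416 genes and all 15 libraries, and a gene passed at a Benjamini-Hochberg adjusted p of at most 0.05. Every log2 fold change is a difference of log2(FPKM + 1), which makes changes of low genes look smaller than they are. The tissue itself differed between groups. The sum of 10 erythroid markers was 30770 to 41390 FPKM in OVX libraries, against 375 to 2276 in Sham libraries. The sum of 10 cartilage markers was 3.27 to 10.6 FPKM in OVX libraries, where 7 of the 10 stayed under 1 FPKM, against 7097 to 13850 in Sham libraries. In RNA from a whole bone, fewer cells of a type and less RNA per cell cannot be told apart, and this holds for every result that follows.

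Nearly all tested histone genes were higher in OVX than in Sham femurs. Of 28 tested, 26 rose and none fell, where 25.3% of all tested genes rose and 28.9% fell. The 2 that did not pass the test were H1f0 and H1f2. The median log2 fold change of the 28 was 2.25, against -0.04 over all tested genes. With no filter on low values, 29 of 36 rose, against 16.5% of all genes, and the median log2 fold change was 1.89. The filter used the mean of all 15 libraries. Rows such as H3c1 and Hist1h2bg, with Sham means of 0.126 and 0.0479 FPKM, thus passed it only through other groups. The counts and medians by family that follow cover only rows that passed this filter. All 6 tested H2A, all 6 H2B, all 5 H3 and all 5 H4 rows rose, as did 4 of 6 linker histones. Their median log2 fold changes were 2.37 for H2A, 2.27 for H2B, 2.73 for H3, 1.78 for H4 and 1.73 for H1.

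The summed FPKM of the 30 core histone rows was 283.9, 205.4 and 170.8 in OVX libraries, against 17.98, 15.4 and 34.4 in Sham libraries. The lowest OVX library lay above the highest Sham library. The ratio of the group means was 9.74, and the means were 220.1 ± 58.0 FPKM in OVX and 22.6 ± 10.3 FPKM in Sham (SD, n = 3 each). By family the ratio was 19.0 for H2B, 16.2 for H3, 13.7 for H2A and 5.23 for H4. No test was made of these sums.

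**Figure D1:**
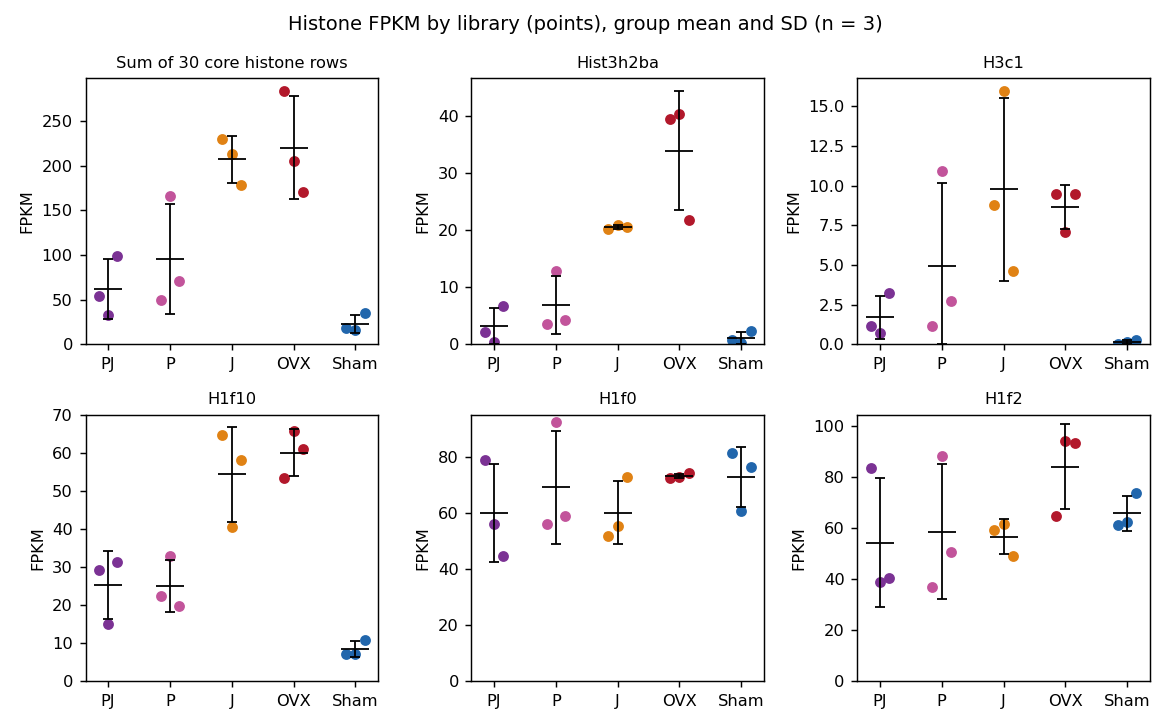
FPKM (vertical axes, from 0) of the summed 30 core histone rows and of 5 single genes in each group (horizontal axes); points are libraries, and bars are the mean and SD of 3 libraries, with the lower bar ended at 0 where the SD exceeds the mean. The core sum is 170.8 to 283.9 in OVX and 15.4 to 34.4 in Sham libraries, while H1f0 spans 72.3 to 74.0 in OVX and 60.6 to 81.2 in Sham libraries.

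The linker histones split. H1f10 was 53.5, 66.0 and 61.1 FPKM in OVX libraries, against 7.18, 7.12 and 10.7 FPKM in Sham libraries. The groups did not overlap, and its log2 fold change was 2.73 ± 0.28 (SE, adjusted p = 5.6e-06). H1f0 was 72.3, 72.9 and 74.0 FPKM in OVX libraries, against 81.2, 60.6 and 76.4 FPKM in Sham libraries. The OVX values lay within the Sham range, and the log2 fold change was 0.02 ± 0.23 (adjusted p = 0.96). The 2 genes that share a replication-independent mode of expression stood on different sides of the test.

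H1f2, a replication-dependent linker histone, was 64.9, 94.1 and 93.4 FPKM in OVX libraries, against 61.4, 62.4 and 73.7 FPKM in Sham libraries. Its groups overlapped, with a log2 fold change of 0.33 ± 0.32 (adjusted p = 0.40). The other 3 tested replication-dependent linker histones rose. H1f4 was 18.4, 10.7 and 10.2 FPKM in OVX libraries, against 0.24, 1.16 and 5.73 in Sham libraries (log2 fold change 2.38 ± 0.58, adjusted p = 0.0036). H1f5 had a log2 fold change of 2.19 ± 0.36 and H1f1 of 1.26 ± 0.40 (adjusted p = 0.00022 and 0.018). H1f1 had no read in Sham 1 and Sham 2, which allows up to 0.0818 and 0.116 FPKM, counting 3 reads as the limit. H1f2 holds the H1 box and CCAAT at nearly the same distances as H1f4 and H1f5. It lacks TATAAA, which lies 30 and 28 bases before the start in H1f4 and H1f5. H1f2 was the only 1 of these 3 that did not pass, and a link to the promoters was not tested.

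H1f0, H1f2 and H1f10 together made up most of the summed histone FPKM in every Sham, P and PJ library. They also did so in OVX 2 and OVX 3 (51.0% and 54.9%), but not in OVX 1 or any J library. They held 38.0% to 54.9% of the summed member FPKM in OVX libraries, against 79.4% to 88.6% in Sham libraries. In the treated groups they held 51.4% to 75.4% in PJ, 52.7% to 67.5% in P and 39.3% to 46.7% in J libraries.

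Hist3h2ba, an H2B gene, had the largest log2 fold change of the 28. It was 39.6, 40.4 and 21.9 FPKM in OVX libraries, against 0.68, 0.28 and 2.36 FPKM in Sham libraries, with a log2 fold change of 4.12 ± 0.57 (adjusted p = 5.5e-05). The lowest OVX value was far above the highest Sham value. The rank of Hist3h2ba depends on the added 1 FPKM. Its ratio of group means was 30.6, against 72.5 for Hist1h2bg, also an H2B gene, and 69.1 for H3c1. H2bc18, another H2B gene, was 4.72, 4.06 and 3.39 FPKM in OVX libraries, against 0.889, 1.32 and 0.874 FPKM in Sham libraries (log2 fold change 1.32 ± 0.25, adjusted p = 0.00065), the smallest change among the H2B rows tested. The 2 rows named Hist1h2bo rose by a log2 fold change of 2.44 ± 0.29 (68034) and 2.24 ± 0.28 (70916), with adjusted p = 1.8e-05 and 2.7e-05. Hist1h2bc had 2.29 ± 0.50 (adjusted p = 0.0017).

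Among H2A genes, Hist1h2af was the most abundant. It was 14.2, 8.38 and 10.7 FPKM in OVX libraries, against 0.826, 1.32 and 1.33 FPKM in Sham libraries (log2 fold change 2.47 ± 0.27, adjusted p = 1e-05). H2ac12 was 11.1, 9.22 and 7.43 FPKM in OVX libraries, against 0, 0 and 0.552 FPKM in Sham libraries. Sham 1 and Sham 2 held none of its reads, which allows up to 0.116 and 0.164 FPKM, and its log2 fold change was 3.13 ± 0.47 (adjusted p = 0.00011). H2ac4 and Hist1h2ac had log2 fold changes of 2.62 ± 0.44 and 2.27 ± 0.31 (adjusted p = 0.00025 and 5.7e-05).

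The H3 family had the highest median change, over low levels in Sham femurs. Hist1h3b (68516) was 26.2, 13.2 and 15.0 FPKM in OVX libraries, against 0.0635, 0.361 and 1.00 FPKM in Sham libraries (log2 fold change 3.69 ± 0.60, adjusted p = 0.00021). H3c1 was 9.47, 7.08 and 9.48 FPKM in OVX libraries, against 0, 0.125 and 0.252 FPKM in Sham libraries. In inferred reads these were 249 over the OVX libraries and 3 over the Sham libraries, a ratio of 78.8 after scaling to the library totals. The inferred reads are the smallest whole counts that fit, at an inferred length of 231 bases, and true counts may be a multiple of them. The exact 95% interval of 26.7 to 385 covers counting error only. Its width is uncertain, and it is too narrow if these counts hold 2 reads a fragment. The fitted log2 fold change of H3c1 was 3.10 ± 0.55 (adjusted p = 0.00040). H3c13 was 10.1, 13.5 and 16.9 FPKM in OVX libraries, against 1.45, 0.265 and 2.14 FPKM in Sham libraries (log2 fold change 2.73 ± 0.56, adjusted p = 0.0011). Hist2h3c2 was 8.63, 5.19 and 4.97 FPKM in OVX libraries, against 0.0902, 1.35 and 2.33 FPKM in Sham libraries (log2 fold change 1.80 ± 0.52, adjusted p = 0.011). Without Sham 1, Hist2h3c2 no longer passed (adjusted p = 0.054).

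Among the 4 core families H4 had the lowest median log2 fold change, though families were not tested against each other. Hist1h4m (67648), the most abundant H4 row, was 54.5, 32.5 and 17.6 FPKM in OVX libraries, against 5.85, 1.76 and 10.2 FPKM in Sham libraries (log2 fold change 2.45 ± 0.59, adjusted p = 0.0035). Hist2h4 was 24.6, 25.7 and 15.3 FPKM in OVX libraries, against 4.56, 4.68 and 7.81 FPKM in Sham libraries (1.78 ± 0.24, adjusted p = 4.9e-05). Hist1h4m (70513) and Hist1h4m (64025) had log2 fold changes of 1.98 ± 0.41 and 1.49 ± 0.31 (adjusted p = 0.0013 and 0.0011).

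Gene lengths were inferred from the FPKM values. They are the smallest that fit, so a true length may be a multiple of the value given. Of the 36 rows above 0, 20 were under 1000 bases, with a median of 601, and 16 were 1000 bases or longer, with a median of 1495. This limit was chosen after the values were seen. The median log2 ratio of OVX over Sham, from group means of FPKM + 1, was 2.3 for the shorter rows and 1.05 for the longer ones, but the classes overlapped over their whole range, -0.16 to 3.7 for the shorter rows and -0.18 to 4.05 for the longer ones. Adding 1 FPKM flattens the ratio of low rows, and 6 of the longer and 2 of the shorter rows were below the mean of 1 FPKM. The 4 long rows H1f2 (4159 bases), Hist1h2bq (4156), H2ac25 (2552) and H1f0 (2487) had log2 ratios of 0.35, 0.08, -0.18 and 0.01. The short row H1f6 (797 bases) had -0.16. Other long rows were higher in OVX, such as H2bc18 (3196 bases) and Hist2h4 (2957 bases). Rows share families and copies and are not replicates, so no test was made.

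**Figure D2:**
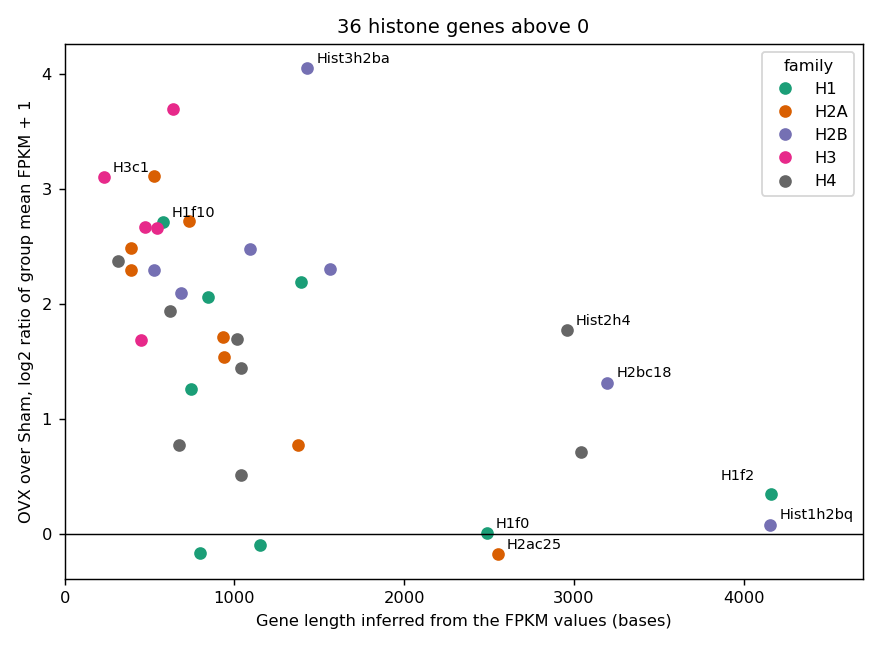
Inferred gene length in bases (horizontal axis) against the log2 ratio of OVX over Sham from group mean FPKM + 1 (vertical axis) for the 36 histone rows above 0, 1 point a row and 1 colour a family. H1f0, H1f2, Hist1h2bq and H2ac25 lie between -0.18 and 0.35 at lengths of 2487 to 4159 bases, while Hist3h2ba lies highest at 1429 bases.

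In J femurs no histone gene passed the test against OVX. Of 28 tested, none rose or fell, where 3.27% of all tested genes rose and 2.79% fell. The log2 fold changes were positive for 15 and negative for 13, with a median of 0.03 against 0.11 over all tested genes. None reached an unadjusted p of 0.05 in limma, where 25% of all genes did, and the count by limma voom on the inferred reads was also 0. The smallest adjusted p was 0.24, for Hist2h4 (log2 fold change -0.48 ± 0.24). These results do not show that the groups are alike.

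The core histone sum was 229.7, 212.9 and 178.5 FPKM in J libraries, against 283.9, 205.4 and 170.8 FPKM in OVX libraries, and the groups overlapped. H1f10 was 64.7, 40.5 and 58.3 FPKM in J libraries, against 53.5, 66.0 and 61.1 FPKM in OVX libraries (log2 fold change -0.16 ± 0.28, adjusted p = 0.75). Hist3h2ba was 20.3, 21.0 and 20.5 FPKM in J libraries, all under the lowest OVX library, which had 21.9 FPKM. Its log2 fold change of -0.64 ± 0.57 did not pass (adjusted p = 0.50). H3c1 was 8.75, 15.96 and 4.59 FPKM in J libraries, on both sides of the OVX range of 7.08 to 9.48 FPKM (log2 fold change 0.02 ± 0.55, adjusted p = 0.99).

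In P femurs, 10 of 28 tested histone genes fell against OVX and none rose, where 15% of all tested genes fell and 24.2% rose. The median log2 fold change was -0.97, against 0.12 over all tested genes. With no filter, 10 of 36 fell, against 9.11% of all genes, and the median was -0.86. By family, 4 of 6 H2A, 3 of 6 H2B, 2 of 5 H4, 1 of 6 H1 and none of 5 H3 rows fell. The largest fall was that of Hist3h2ba, with 3.59, 12.8 and 4.19 FPKM in P libraries, against 39.6, 40.4 and 21.9 FPKM in OVX libraries (log2 fold change -2.29 ± 0.57, adjusted p = 0.0068). H1f10 was 22.5, 32.8 and 19.7 FPKM in P libraries and so below all 3 OVX libraries (-1.26 ± 0.28, adjusted p = 0.0038). Hist2h4 was 11.7, 8.21 and 9.93 FPKM in P libraries, against 24.6, 25.7 and 15.3 FPKM in OVX libraries (-1.04 ± 0.24, adjusted p = 0.0046). The 2 Hist1h2bo rows fell by 1.34 (68034) and 1.37 (70916) on the log2 scale, with adjusted p = 0.0032 and 0.0022. The other 5 that fell were H2ac12, H2ac4, Hist1h2af, Hist1h2ao and Hist1h4b.

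P 2 stood apart from the other P libraries in its histones. The core histone sum was 49.8, 165.9 and 70.8 FPKM in P 1, P 2 and P 3. P 2 was the highest of the 3 in 21 of 22 tested core rows and reached at least the lowest OVX library in 13 of them, while P 1 and P 3 did so in none. In the DNA synthesis genes, described further on, P 2 was the highest of the 3 in only 10 of 28 rows and the lowest in 17. P 2 also had the highest mitochondrial share of FPKM, 36.8%, against 17.9% in P 1 and 11.4% in P 3. Its erythroid marker sum was 9267 FPKM, against 3325 and 4817 in P 1 and P 3, its cartilage sum 4899, against 61.5 and 224, and its muscle sum 988, against 42.0 and 12.2. The part of these differences in the histone values was not tested. Without P 2, 23 of 28 fell, and the log2 ratio of the core sum was -1.87 in place of -1.20. Without OVX 1 or P 1, 5 fell, and without P 3 or in a fit of the P and OVX libraries alone, 6 fell. Where 5 or 6 fell, the share of all tested genes that passed was also smaller than in the full fit. That share fell by a smaller part than the histone count in each of these fits.

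In PJ femurs, which received both extracts, 23 of 28 tested histone genes fell against OVX and none rose, where 14.6% of all tested genes fell and 29.8% rose. The median log2 fold change was -1.35, against 0.22 over all tested genes. With no filter, 24 of 36 fell, against 9.34% of all genes, and the median was -1.22. All 6 H2A, all 6 H2B and all 5 H3 rows tested fell, as did 4 of 5 H4 and 2 of 6 H1 rows. The 5 that did not pass were H1f0, H1f1, H1f2, H1f4 and Hist1h4m (67648). Without OVX 1 the count was 15, and without PJ 2 it was 14. In both of these fits the share of all tested genes that passed was also smaller than in the full fit. It fell by a smaller part than the histone count did.

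The core histone sum was 54.4, 32.6 and 99.1 FPKM in PJ libraries, against 283.9, 205.4 and 170.8 FPKM in OVX libraries, and the highest PJ library lay under the lowest OVX library. Hist3h2ba was 2.22, 0.459 and 6.77 FPKM in PJ libraries, against 39.6, 40.4 and 21.9 FPKM in OVX libraries (log2 fold change -3.35 ± 0.57, adjusted p = 0.00052). Hist1h2bo (68034) was 0.978, 0.480 and 1.12 FPKM in PJ libraries, against 7.38, 6.63 and 3.65 FPKM in OVX libraries (-1.86 ± 0.29, adjusted p = 0.00032). Hist1h2bo (70916) had -1.35 ± 0.28 (adjusted p = 0.0020). H1f10 was 29.3, 14.9 and 31.3 FPKM in PJ libraries (-1.29 ± 0.28, adjusted p = 0.0028), and Hist2h4 was 7.54, 9.42 and 11.4 FPKM (-1.11 ± 0.24, adjusted p = 0.0026). All 3 PJ values of both genes lay under the OVX values. H1f0, at 78.9, 56.0 and 44.6 FPKM in PJ libraries, had a log2 fold change of -0.32 ± 0.23 (adjusted p = 0.27). H1f2 was 83.5, 38.9 and 40.4 FPKM in PJ libraries, against 64.9, 94.1 and 93.4 FPKM in OVX libraries (-0.69 ± 0.32, adjusted p = 0.096). Its PJ 1 value lay within the OVX range, and without PJ 1 H1f2 passed (-1.05, adjusted p = 0.017).

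All 5 H3 rows fell in PJ and none passed in P, each against OVX, but no H3 row passed in PJ against P. These calls rest on single libraries. Without P 2, Hist1h3b (68516), H3c13 and H3c1 passed in P (adjusted p = 0.0088, 0.013 and 0.0093). Without PJ 2, none of these 3 passed in PJ, nor did Hist2h3c2 (adjusted p = 0.082, 0.11 and 0.055, and 0.10 for Hist2h3c2). H3c1 was 1.16, 0.709 and 3.26 FPKM in PJ libraries (log2 fold change -1.94 ± 0.55, adjusted p = 0.013) and 1.12, 10.9 and 2.75 FPKM in P libraries (-1.07 ± 0.55, adjusted p = 0.14), against 9.47, 7.08 and 9.48 FPKM in OVX libraries. Hist1h3b (68516) was 2.87, 1.36 and 9.85 FPKM in PJ libraries (-1.99 ± 0.60, adjusted p = 0.017) and 2.72, 19.0 and 4.37 FPKM in P libraries (-1.32 ± 0.60, adjusted p = 0.10), against 26.2, 13.2 and 15.0 FPKM in OVX libraries. In both genes P 1 and P 3 were under the OVX range and P 2 was above its lowest value.

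**Figure D3:**
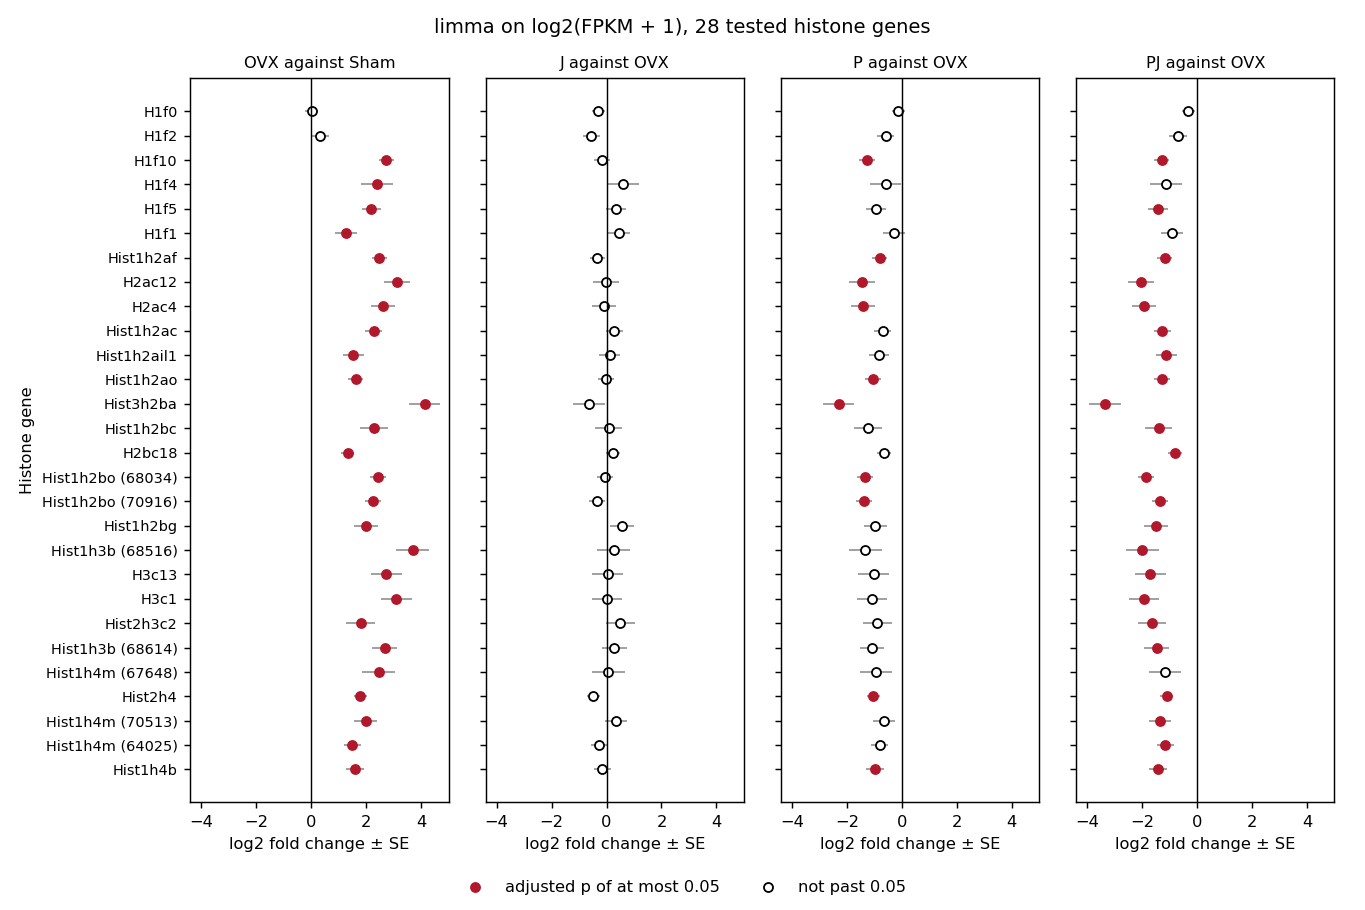
log2 fold change ± SE (horizontal axes) of the 28 tested histone rows (vertical axis, grouped by family) from limma on log2(FPKM + 1); filled points passed an adjusted p of 0.05. Filled points number 26 in OVX against Sham, 0 in J, 10 in P and 23 in PJ, each against OVX.

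The combined extract was also compared with each single extract, where the PJ dose is the sum of the J and P doses. In PJ against J, 19 of 28 histone genes fell and none rose, where 5.88% of all tested genes fell and 8.38% rose. The median log2 fold change was -1.52, against 0.14 over all tested genes. With no filter, 15 of 36 fell, against 2.95% of all genes, and the median was -1.25. The rows that fell were 5 of 6 H2A, 5 of 6 H2B, 4 of 5 H3, 2 of 5 H4 and 3 of 6 H1. Hist3h2ba was 2.22, 0.459 and 6.77 FPKM in PJ libraries, against 20.3, 21.0 and 20.5 FPKM in J libraries (log2 fold change -2.7 ± 0.57, adjusted p = 0.012). H1f10 was 29.3, 14.9 and 31.3 FPKM in PJ libraries, against 64.7, 40.5 and 58.3 FPKM in J libraries (-1.12 ± 0.28, adjusted p = 0.022). In both genes every PJ library lay under every J library. The count was lower with fewer libraries: it was 5 without J 1, 8 without J 2, 6 without PJ 1 and 3 without PJ 2. It was 12 in a fit of the PJ and J libraries alone. In each of these fits the share of all tested genes that passed was also smaller than in the full fit. Without J 1 or J 2 the histone count fell by a larger part than that share. Without PJ 1 or PJ 2 both fell by similar parts, and in the fit of the PJ and J libraries alone the histone count fell by less. Whether histone genes lose calls more readily than other genes was not tested.

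In PJ against P, none of the 28 rose or fell in limma, where 0% of all tested genes passed. Their log2 fold changes were negative for 27 and positive for 1, with a median of -0.47 against 0.08 over all tested genes. None reached an unadjusted p of 0.05, where 2.05% of all genes did, and the count by limma voom was also 0. The core sums of 54.4, 32.6 and 99.1 FPKM in PJ libraries and 49.8, 165.9 and 70.8 FPKM in P libraries overlapped. The log2 ratio of the 2 means was -0.62, and without P 2 it was 0.04.

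Inside the other groups, most core histone rows were highest in the same library, except in J. Of the 22 tested core rows, PJ 3 was the highest of the PJ libraries in 21 and PJ 2 the lowest in 18. OVX 1 was the highest of the OVX libraries in 17, and Sham 3 the highest of the Sham libraries in 16. In J the highest library was J 1 in 11 and J 2 in 10. The 28 DNA synthesis rows had a like order in PJ, OVX and Sham. Among these rows, PJ 3 was highest in 17 and PJ 2 lowest in 22, OVX 1 was highest in 17 and Sham 3 in 24. In J they differed from the core rows, with J 1 highest in 22 and J 2 lowest in 24. The erythroid marker sum was 5867 FPKM in PJ 3, against 1677 and 1345 in the other PJ libraries, and 2276 in Sham 3, against 831 and 375 in the other Sham libraries. The part of these marker differences in the histone values was not tested. Over all 5 groups, 26 of the 28 tested rows differed in the F test of limma, where 50% of all tested genes did.

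**Figure D4:**
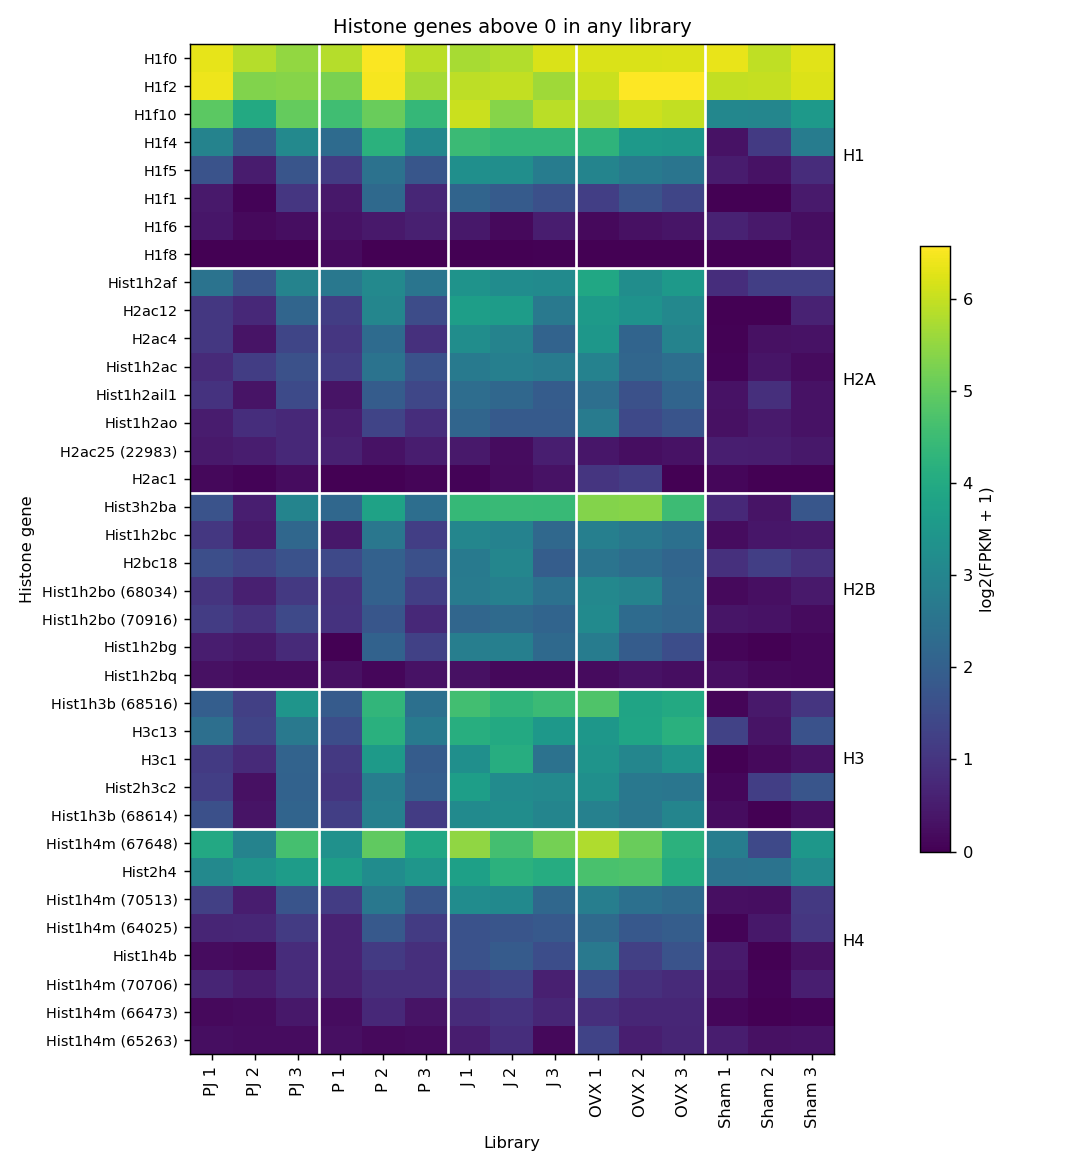
log2(FPKM + 1), as colour, of the 36 histone rows above 0 (rows, grouped by family and ordered by mean) in the 15 libraries (columns, by group). H1f0 and H1f2 are high in all libraries. Most of the 22 tested core rows lie above the highest Sham library in each OVX, J, P and PJ library. The exceptions are most frequent in PJ 2, where 8 rows lie at or below it.

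Genes of DNA synthesis and the cell cycle were set beside the histones, since replication-dependent histone genes are on while DNA is copied. Of 28 tested rows, 27 rose in OVX against Sham and 1, a second row named Cdc45, fell, where 25.3% of all tested genes rose and 28.9% fell. Against OVX, 27 fell and 1 rose in PJ, 26 fell and 1 rose in P, and 7 fell in J. The shares of all tested genes that fell there were 14.6%, 15% and 2.79%. The median log2 fold change of these rows was 2.98 in OVX against Sham, and -1.62 in PJ, -1.44 in P and -0.71 in J against OVX, beside the medians over all tested genes given above. Tk1, thymidine kinase, was 126, 116 and 108 FPKM in OVX libraries, against 2.64, 3.74 and 5.10 FPKM in Sham libraries (log2 fold change 4.64 ± 0.27, adjusted p = 1.3e-07). Mki67, the marker of dividing cells, was 131, 155 and 108 FPKM in OVX libraries, against 1.5, 1.46 and 3.38 FPKM in Sham libraries (5.45 ± 0.25, adjusted p = 1e-07). Pcna, the sliding clamp of the replication fork, was 166, 107 and 118 FPKM in J libraries, against 233, 219 and 225 FPKM in OVX libraries (-0.81 ± 0.18, adjusted p = 0.025).

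The ratio of the core histone sum to the sum of the 28 DNA synthesis rows was compared in 6 pairs of groups by an exact permutation test. With 3 against 3 libraries this test cannot give a p under 0.1, so no pair could pass at 0.05. Its p-values are given as a description and decide nothing. The DNA synthesis sum was 1084, 748 and 898 FPKM in J libraries, against 1562, 1467 and 1435 FPKM in OVX libraries, without overlap, while the core histone sums of these groups overlapped. The ratio of core histones to DNA synthesis was 0.212, 0.285 and 0.199 in J libraries, against 0.182, 0.140 and 0.119 in OVX libraries. Every J library lay above every OVX library, and the two-sided exact permutation test gave p = 0.1, the smallest that 3 against 3 allows (adjusted p = 0.3 over 6 comparisons). The ratio in PJ libraries was 0.109, 0.0914 and 0.199. These lay under the J libraries, although PJ 3 and J 3 were equal to 3 digits (exact permutation p = 0.1, adjusted p = 0.3). In P libraries it was 0.0924, 0.336 and 0.141, and the value of P 2 was the highest of all 15. Sham libraries had 0.109, 0.0846 and 0.152, which overlapped with OVX (exact p = 0.4). The mean ratio was 0.133 in PJ and 0.190 in P, against 0.147 in OVX libraries (exact permutation p = 0.7 and 0.8), and PJ against P gave an exact p of 0.6.

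**Figure D5:**
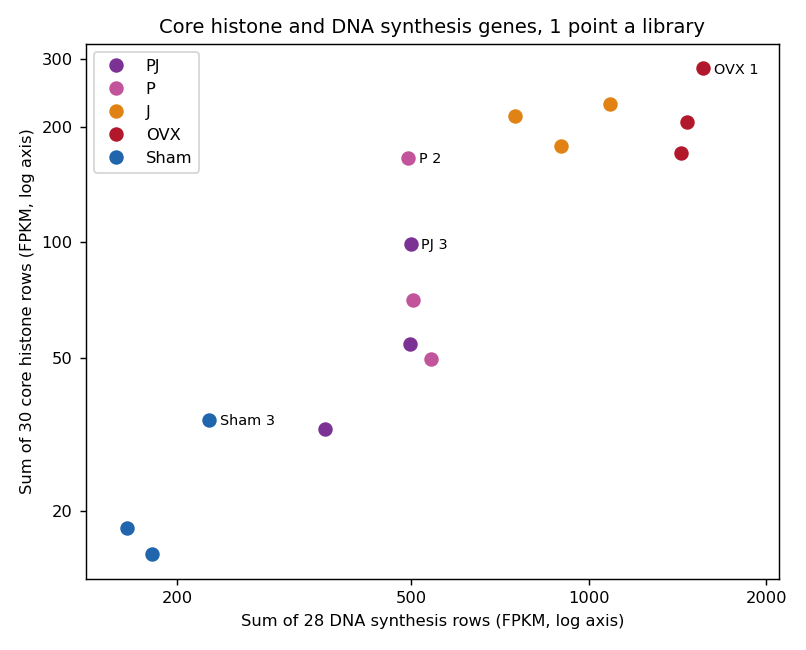
Summed FPKM of the 28 DNA synthesis rows (horizontal log axis) and of the 30 core histone rows (vertical log axis), 1 point a library, coloured by group. The J libraries lie left of OVX at core sums of 178.5 to 229.7, and P 2 lies at a core sum of 165.9 above P 1 and P 3 at a similar DNA synthesis sum.

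Slbp, which binds the stem-loop of histone mRNA, was 164, 144 and 127 FPKM in OVX libraries, against 16.3, 14.1 and 22.6 FPKM in Sham libraries (log2 fold change 2.98 ± 0.20, adjusted p = 2.9e-07). Its libraries did not overlap between these groups. It was 34.7, 35.1 and 46.2 FPKM in PJ, 57.4, 51.2 and 44.8 FPKM in P, and 109, 72.2 and 101 FPKM in J libraries. Slbp fell in PJ (-1.89 ± 0.20, adjusted p = 2.8e-05) and in P (-1.49 ± 0.20, adjusted p = 0.00019), and did not pass in J (-0.63 ± 0.20, adjusted p = 0.079), each against OVX. Unlike the core histones, Slbp was not highest in P 2 among the P libraries.

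Of 24 tested genes of histone mRNA transcription and end processing, 11 rose and 1 fell in OVX against Sham, where 25.3% of all tested genes rose and 28.9% fell. Against OVX, 1 rose and 4 fell in PJ, 1 rose and 3 fell in P, and none passed in J. The shares that fell in PJ and P are near the 14.6% and 15% of all tested genes that fell there. Their median log2 fold change was 0.38 in OVX against Sham, and -0.15 in PJ, -0.26 in P and -0.13 in J against OVX. Eri1, a nuclease that trims the ends of histone mRNA, rose in OVX against Sham by 1.63 ± 0.15 on the log2 scale (adjusted p = 2.3e-06). Npat, which activates histone gene transcription, was 7.71, 10.8 and 8.28 FPKM in OVX libraries, against 6.30, 6.16 and 5.85 FPKM in Sham libraries (0.47 ± 0.14, adjusted p = 0.012). Ncbp2, a subunit of the cap-binding complex, was the 1 that fell, at 19.8, 20.6 and 20.9 FPKM in OVX libraries, against 41.2, 38.4 and 45.9 FPKM in Sham libraries (-1.0 ± 0.18, adjusted p = 0.00047).

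Replacement histones outside the name rule, which are made without regard to replication or take special places in chromatin, had 9 tested rows. In OVX against Sham 7 rose and none fell, where 25.3% of all tested genes rose and 28.9% fell. Against OVX, 6 fell and 1 rose in PJ, 7 fell and 1 rose in P, and none passed in J. Of all tested genes, 14.6% fell in PJ, 15% in P and 2.79% in J. Their median log2 fold change was 1.85 in OVX against Sham, and -1.18 in PJ, -1.09 in P and -0.31 in J against OVX. H2az1 was 299, 282 and 279 FPKM in OVX libraries, against 41.1, 38.5 and 50.9 FPKM in Sham libraries (log2 fold change 2.7 ± 0.24, adjusted p = 1.7e-06). H2ax, which marks DNA breaks when phosphorylated, had 3.26 ± 0.27, and Cenpa, the H3 variant of centromeres, had 3.65 ± 0.24 (adjusted p = 9.9e-07 and 2.7e-07). These 3 were chosen by the smallest F test p and do not stand for all 9. H3f3a was 474.4, 624.2 and 711.3 FPKM in OVX libraries, against 357.5, 429.1 and 581.5 FPKM in Sham libraries. Its groups overlapped, with a ratio of group means of 1.32, against 3.58 for H3f3b. Of 19 histone chaperones, which carry histones and place them on DNA, 13 rose and 1 fell in OVX against Sham. Against OVX, 10 fell and 2 rose in PJ, 12 fell in P, and 1 fell in J. These counts stand beside the same shares of all tested genes, and the 1 in J says little. The chaperones had a median of 0.96 in OVX against Sham, and -0.52 in PJ, -0.48 in P and -0.25 in J against OVX. Asf1b was 44.6, 38.4 and 34.9 FPKM in OVX libraries, against 0.922, 1.24 and 1.55 FPKM in Sham libraries (4.18 ± 0.30, adjusted p = 4e-07). Hjurp, the chaperone of Cenpa, had 3.14 ± 0.24 (adjusted p = 6.5e-07), and Nasp, which binds H1 and H3, had 1.89 ± 0.15 (adjusted p = 9.1e-07).

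Markers of marrow and bone cells were counted beside the histones. In OVX against Sham, 10 of 10 erythroid, 9 of 9 neutrophil precursor and 8 of 10 B cell precursor markers rose, while 9 of 9 tested cartilage, 4 of 10 stromal and bone and 2 of 8 muscle markers fell. In PJ against OVX, 10 erythroid and 9 neutrophil precursor markers fell and 1 B cell precursor marker rose, with 10 of 10 adipocyte, 7 of 10 stromal and bone and 3 of 9 cartilage markers higher. In P against OVX, 10 erythroid and 8 neutrophil precursor markers fell, while 9 of 10 stromal and bone, 4 of 9 cartilage, 3 of 10 adipocyte and 1 of 8 muscle markers rose. In J against OVX, 1 erythroid marker fell and 3 stromal and bone markers rose, where 2.79% of all tested genes fell and 3.27% rose. Some of these counts were near or under the shares of all tested genes. In OVX these were the falls of muscle markers (28.9% of all genes fell). In PJ they were the higher cartilage markers and the 1 higher B cell precursor marker (29.8% rose). In P they were the higher adipocyte and muscle markers (24.2% rose). The erythroid sum was 1345 to 5867 FPKM in PJ, 3325 to 9267 in P, 17330 to 21030 in J, 30770 to 41390 in OVX and 375 to 2276 in Sham libraries. The neutrophil precursor sum was 964 to 3001 in PJ, 1322 to 3028 in P, 2540 to 9019 in J, 8967 to 9443 in OVX and 69.2 to 166 in Sham libraries, with Np4 at 0 in all Sham libraries. No erythroid, stromal and bone or adipocyte marker was at 0 in all 3 libraries of any group. Their part in the histone values was not tested.

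RNAs that lack a poly(A) tail were also looked up, since their level bears on how much of such RNA entered a library. Of 16 names only Rpph1, the RNA of RNase P, and Rn7sl1 were matched in the files. Rpph1 was 0.897, 0.550 and 1.73 FPKM in PJ, 0.870, 3.03 and 1.81 in P, 3.35, 4.04 and 3.77 in J, 10.7, 0.784 and 1.96 in OVX, and 2.18, 3.29 and 3.32 in Sham libraries. OVX 1, the OVX library with the highest core histone sum, had the highest value, and OVX 2 and OVX 3 lay under all 3 Sham libraries. Rpph1 was highest in PJ 3, P 2 and OVX 1 within their groups, the libraries with the highest core histone sums. In J it was lowest in J 1, the J library with the highest core histone sum. In Sham 3, which had the highest core sum of its group, it was nearly equal to Sham 2. Its log2 fold change was 0.02 ± 0.53 in OVX against Sham (adjusted p = 0.97). Against OVX it was -0.98 ± 0.53 in PJ, -0.52 ± 0.53 in P and 0.25 ± 0.53 in J (adjusted p = 0.15, 0.47 and 0.80), and in PJ against J it was -1.23 ± 0.53 (adjusted p = 0.13), so none passed. The ratio of group means was 0.236 in PJ and 0.424 in P against OVX and 0.284 in PJ against J, where the core histone sum had 0.282, 0.434 and 0.299. In OVX against Sham the ratio was 1.53 for Rpph1 and 9.74 for the core histone sum. The OVX mean of Rpph1 rests on OVX 1, at 10.7 FPKM against 0.784 and 1.96 in OVX 2 and OVX 3, so ratios to OVX depend on that library. The part of such RNA in the histone values was not tested. Without OVX 1, 26 of the tested histone genes rose in OVX against Sham. The share of all tested genes that passed was smaller in that fit than with all 15 libraries. This count does not test the part of such RNA.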

How the data were processed

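Groups of the 15 femur libraries were taken from the sample titles. TRIzol was used for extraction and a TruSeq kit for the libraries, per the labels' protocols. The submitters' processing notes name fastp 0.23.4, STAR 2.7.11a, featureCounts 2.0.6 and build mRatBN7.2. The sources used here do not give the strand setting, the treatment of reads that map to several places or the annotation release. The deposited values are FPKM, computed by the authors per gene length and library size, and 30454 genes are listed. Reads were inferred from them, since the values of a gene are whole multiples of 1 read. The smallest whole counts that also gave a whole gene length were taken, so true counts and lengths may be a multiple of these. The inferred totals were 34.4 to 61.03 times 1000000. Of inferred counts from 1 to 20, 64.2% were even, so a fragment may count as 2 reads. A floor of 3 reads was 0.0492 to 0.0873 per 1000000 reads, which covers counting error only.

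Genes with a mean of at least 1 FPKM over the 15 libraries (14416) were fitted as log2(FPKM + 1) with limma 3.58.1 (R 4.3.3), with moderated variances following a mean trend and 10 residual degrees of freedom. The two-sided p-values were Benjamini-Hochberg adjusted over all tested genes and read at 0.05. Standard errors (SE) come from this model. The code was tested on simulated data. Sums, ratios and motifs were computed in Python 3.11.15. Named histone genes were the 4 of highest mean in each family, the 5 of smallest p in each direction and comparison, and H1f0 and H1f10. Others are named where a count leaves few. From the other gene lists, up to 3 members with the smallest F test p and Slbp, Npat, Mki67 and Pcna were chosen. Members, lists and the rule were chosen with earlier results of these data known. The alternatives tried were TPM, median-ratio scaling, a pseudocount of 0.1, no filter, a mean of at least 5 FPKM, fits of 2 groups, a replicate block and the loss of 1 library at a time. Limma voom on inferred reads and a rescaling without mitochondrial and globin genes were added after the data were seen. An empty deposited column was not used here.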

Additional observations from a re-analysis of the deposited data

How the results depend on the processing

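The counts of histone genes that passed were within 1.5 times those reported for a pseudocount of 0.1, no filter, TPM, median-ratio scaling, limma voom and the rescaling without mitochondrial and globin genes. Requiring a mean of at least 5 FPKM left 11 histone genes, of which 9 rose in OVX against Sham, 4 fell in P and 7 in PJ against OVX, 4 fell in PJ against J, and 9 passed the F test; the lower counts come from fewer genes tested. Fits of only the groups compared gave 6 in P against OVX and 12 in PJ against J, with fewer libraries. Leaving out each library gave 24 to 26 in OVX against Sham, 0 in J against OVX, 5 to 23 in P against OVX, 14 to 25 in PJ against OVX, 3 to 24 in PJ against J, 0 in PJ against P and 25 to 26 in the F test. The log2 ratio of the core histone sum in J against OVX was -0.09 as reported and turned positive without OVX 1 (0.14) or J 3 (0.01), with a range of -0.24 to 0.14; in PJ against P it was -0.62 as reported and ranged from -1.14 to 0.04, the last without P 2; the cause was not tested. Of the fold changes of named histone genes under alternatives, 2832 stayed on their side of the threshold, 91 no longer passed and 41 newly passed. Of the 2832, 57 changed sign, 26 of them in J against OVX and 21 in PJ against P, and none of these passed as reported. Median-ratio scaling moved the median of all genes by -0.25 in PJ and -0.17 in P against OVX and by -0.15 in PJ against J, so falls there were larger by about that much, and TPM moved it by 0.14 in PJ against OVX, 0.18 in PJ against J and -0.12 in OVX against Sham.

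Replicate numbers did not pair the libraries: over 30 pairs of the same number in different groups, correlations of deviations from group means were -0.409 to 0.488, with 9 above 0.1, and 7 of 15 libraries were closest to their own number. With the replicate block the counts were 26 in OVX against Sham, 0 in J, 10 in P and 22 in PJ against OVX, 17 in PJ against J, 0 in PJ against P and 26 in the F test. Depth limits the lowest rows: rows of a few reads in Sham libraries give fold changes that depend on the pseudocount.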

Other observations

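H2ac1, an H2A gene known from testis, was below the filter on low values but uneven between libraries. It was 0.111, 0.0478 and 0.159 FPKM in PJ, 0, 0 and 0.0562 in P, 0.0404, 0.141 and 0.257 in J, 1.02, 1.24 and 0 in OVX, and 0.074, 0 and 0 in Sham libraries. OVX 1 and OVX 2 thus lay above all other libraries, and OVX 3 held no read. It was chosen after its values were seen. Of the other testis histones looked up, H1f7 and H2bc1 were at 0 in all 15 libraries, and H1f6 was 0.121 to 0.56 FPKM over the 15 libraries.

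Of the 6 rows named Hist1h4m, 3 were below the filter on low values. Row 66473 was 0.832, 0.630 and 0.640 FPKM in OVX libraries, against 0.0800, 0 and 0.0383 FPKM in Sham libraries. Row 65263 was 1.495, 0.474 and 0.611 FPKM in OVX libraries, against 0.431, 0.223 and 0.253 FPKM in Sham libraries. Row 70706 was 1.94, 0.870 and 0.725 FPKM in OVX libraries, against 0.302, 0.043 and 0.477 FPKM in Sham libraries. Rows of this name may share reads, so their share is uncertain.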
